A study of Mus musculus with 6 samples.

Results

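Gabrp and 6 further genes of GABA signalling, Gabre, Gabra2, Gabra3, Gabrb2, Gabbr1 and Abat, were followed in the mouse uterus after P4, the usual abbreviation of progesterone, and after oil, a common carrier of steroids. The genes are 7 of the 18193 genes tested. They were taken by symbol, as every probe set that the platform annotation assigns to 1 of these names and to no other gene, which gave 21 of 45037 probe sets. The names were chosen with the P4 against oil values of these arrays known, so for these 7 genes that comparison is a description and carries no test. The data are 3 arrays of P4 treated and 3 of oil treated uterine horns. All 6 come from ovariectomized GATA2 f/f females of mixed background aged 8 weeks. The notation f/f usually stands for a gene flanked by recombination sites on each chromosome, here in P4 and oil animals alike. No recombinase, dose or time after treatment is named in the labels, and they do not say whether the arrays of a group came from separate animals. The spread between arrays may therefore not be that between animals.

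GABA is a small amino acid best known as the main inhibitory transmitter of the brain. GABA-A receptors are chloride channels built from subunits of several classes around a pore, and GABA-B receptors are G protein coupled receptors made of a pair of related proteins. Gabrp encodes the pi subunit of the GABA-A receptor, which is found mainly outside the brain and was described in human and rat reproductive tissues, the uterus among them. Gabra2 and Gabra3 encode alpha subunits, Gabrb2 a beta subunit and Gabre the epsilon subunit. Gabbr1 encodes the GABA-binding subunit of the GABA-B receptor, and Abat the mitochondrial transaminase that breaks GABA down. Some progesterone metabolites reduced at carbon 3 act on GABA-A receptors in the brain.

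Gabrp lies on chromosome 11 at chr11:33550781-33578978 (GRCm38.p6). The promoter window of Gabrp is shown because it is the gene whose intensity differed most after P4, and that of Gabbr1 because it is a brightly measured gene of the set whose groups overlapped. Each window runs from 250 bases before to 50 bases after a transcript start in RefSeq (GRCm38.p6), 5′ to 3′ on the gene's strand. Capitals mark the letters GATAA, a core of sites bound by GATA factors, read on both strands.
Gabrp, chr11:33578908-33579207, minus strand: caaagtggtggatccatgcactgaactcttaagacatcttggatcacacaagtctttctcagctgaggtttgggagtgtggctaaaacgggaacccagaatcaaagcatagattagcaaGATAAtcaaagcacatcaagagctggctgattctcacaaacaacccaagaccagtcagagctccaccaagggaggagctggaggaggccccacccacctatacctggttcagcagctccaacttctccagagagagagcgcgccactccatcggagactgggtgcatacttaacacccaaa
Gabbr1, chr17:37045716-37046015, plus strand: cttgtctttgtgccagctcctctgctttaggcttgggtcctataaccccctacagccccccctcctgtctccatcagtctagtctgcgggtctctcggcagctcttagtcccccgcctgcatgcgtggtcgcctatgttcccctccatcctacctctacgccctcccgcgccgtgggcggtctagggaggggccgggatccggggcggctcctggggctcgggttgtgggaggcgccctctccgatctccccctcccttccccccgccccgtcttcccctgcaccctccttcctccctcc

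The Gabrp window held 1 match to GATAA, which starts 131 bases before the transcript start and is part of a match to the longer AGATAA. Of the 32851 windows of the table, 11.2% held the longer motif and 25.4% the shorter. Promoter windows were found for 6 of the 7 genes, 9 windows in all, and GATAA occurred in 3 of the 9, those of Gabrp, Gabra2 and Gabra3. The steroid receptor half-site AGAACA, held by 19.0% of all windows, occurred in 2 of the 3 Gabrb2 windows and in no other of the 9. The full palindromic site of progesterone and glucocorticoid receptors, held by 0.475% of all windows, occurred in 0 of the 9, and so did the estrogen receptor half-site AGGTCA, which 16.3% held. The windows also differed in base composition. That of Gabrp was 50.3% G or C with 4 CpG pairs, near the median of 52.7% over all windows, while that of Gabbr1 was 67.3% with 18 CpG pairs. A match is only a match of letters.

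Gabrp was bright on all 3 oil arrays, and after P4 it was dim on 2 arrays and intermediate on the other. Its brighter probe set, 1451424_at, had intensities of 108, 79.8 and 312 on the P4 arrays, against 769, 982 and 1567 on the oil arrays. The means were 167 ± 126 after P4 and 1106 ± 413 after oil (SD, n = 3 each), 6.64-fold lower after P4. The groups did not overlap: the dimmest oil array stood 2.47 times above the brightest P4 array. On the log2(intensity + 16) scale the difference was -2.77 ± 0.45 (P4 minus oil ± SE), the lowest of all 18193 genes. That rank is among the values that brought the gene into the set. In bulk tissue, fewer cells that express a gene and less of its RNA per cell cannot be told apart.

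The second Gabrp probe set, 1424647_at, showed the same order of arrays at lower intensity. It had 80.8, 69.1 and 135 on the P4 arrays, against 252, 290 and 523 on the oil arrays. The groups again did not overlap, and the log2 difference was -1.72 ± 0.28. In both probe sets array 2 was the lowest of the P4 arrays and array 3 the highest of its group after P4 and after oil. The spread within a group was wide: the brightest P4 array was 3.91 times the dimmest for 1451424_at, and the brightest oil array 2.04 times the dimmest.

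**Figure D1:**
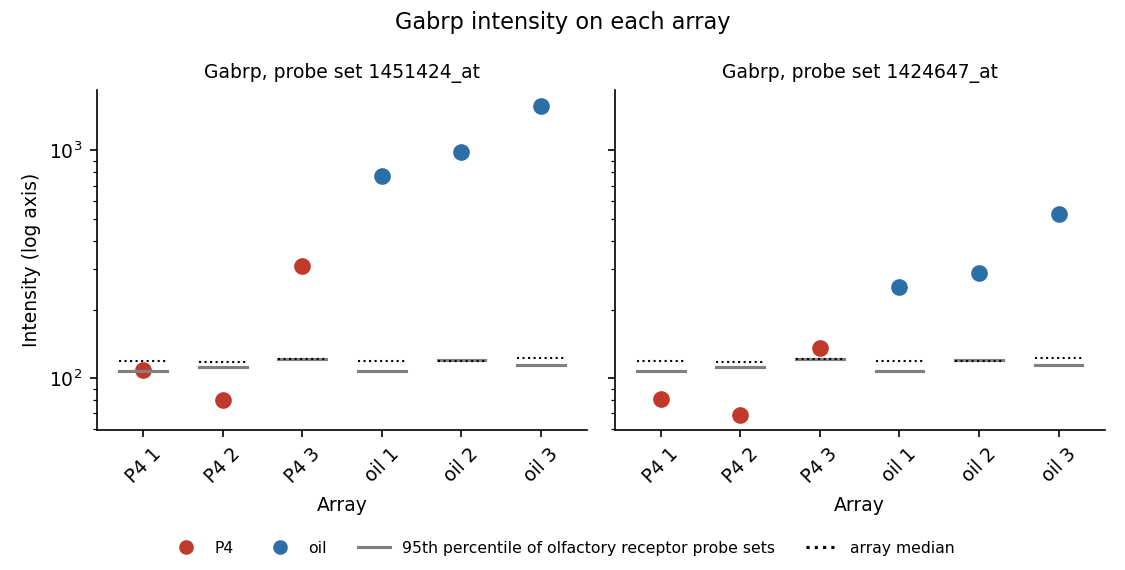
Intensity of both Gabrp probe sets (log axis) on the 3 P4 arrays (red) and the 3 oil arrays (blue); grey bars are the 95th percentile of olfactory receptor probe sets and dotted bars the median of all probe sets on the same array. Every oil array lies above every P4 array, and array 3 is the highest of each group.

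To judge which values rise above background, the 43 probe sets of olfactory receptor genes, which the uterus is not known to use, served as a comparison. Their 95th percentile ran from 107 to 122 on the P4 arrays and from 108 to 120 on the oil arrays, close to the array medians of 117 to 123. So few probe sets give this limit that it is approximate. Gabrp exceeded it on 3 of 3 oil arrays with both probe sets, and on 2 of 3 P4 arrays with 1451424_at and 1 of 3 with 1424647_at. On the P4 arrays at or below the limit the intensity holds background as well, so the folds and log2 differences of Gabrp are those of intensities and not exact folds of RNA. Set against the array median, 1451424_at had log2 levels of -0.13, -0.56 and 1.36 on the P4 arrays, against 2.69, 3.05 and 3.67 on the oil arrays. P4 array 3 was thus the P4 array on which Gabrp stood clearly above the median.

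The other 6 genes differed little between P4 and oil. Over their 19 probe sets the log2 differences ran from -0.28 to 0.26, and the groups did not overlap in 1 of the 19, against 26.6% of all probe sets. Only 5 of the 19, of Gabrb2, Gabbr1 and Abat, were above the olfactory receptor limit on all 6 arrays, and the remaining 14 were above it on none. Of the 7 genes 1, Gabrp, passed limma's adjusted p threshold of 0.05, beside 13.0% of all genes, and in 2, Gabrp and Abat, the groups did not overlap, beside 31.8% of all genes. Because the genes were chosen on this comparison, nothing is read from these counts. The median log2 difference of the 7 genes was -0.01, and that of all genes -0.01.

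**Figure D2:**
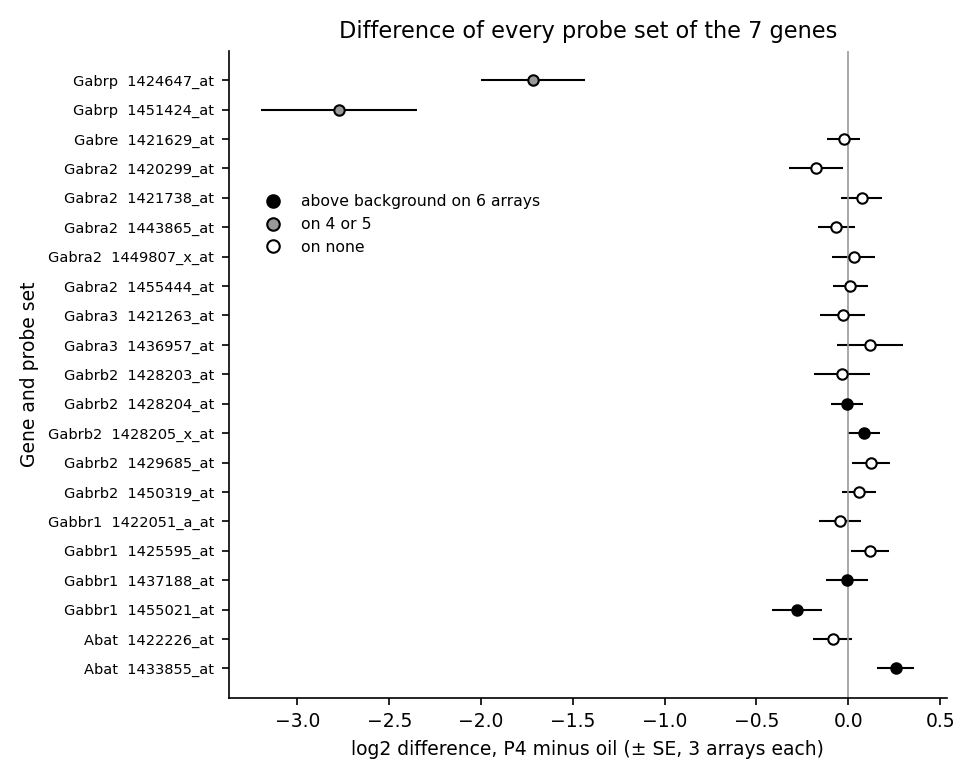
The log2(intensity + 16) difference of P4 minus oil ± SE (3 arrays each) for all 21 probe sets of the 7 genes, with SE from the fit over all probe sets; filled points were above the olfactory receptor limit on 6 arrays, grey points on 4 or 5, open points on none. Both Gabrp probe sets stand apart from the other 19, which lie between -0.28 and 0.26.

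Among the pore-forming subunits other than Gabrp, Gabrb2 was the member above the olfactory receptor limit on all 6 arrays, and its groups overlapped. Its brightest probe set, 1428204_at, had 184, 171 and 177 on the P4 arrays, against 183, 178 and 173 on the oil arrays. The log2 difference was -0.01 ± 0.08. Another probe set of Gabrb2, 1428205_x_at, gave 162, 156 and 151 on the P4 arrays, against 138, 148 and 153 on the oil arrays, a difference of 0.09 ± 0.09 with overlapping groups. The other 3 Gabrb2 probe sets were below the limit on every array.

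Gabre, Gabra2 and Gabra3 were not above the limit on any array with any of their 8 probe sets, so their intensities bear on background as much as on the transcripts. The single probe set of Gabre had 58.9, 50.4 and 55 on the P4 arrays, against 55.5, 55.4 and 57.0 on the oil arrays, a log2 difference of -0.03 ± 0.09. The brightest of the 5 probe sets of Gabra2 had 55.1, 51.8 and 67.7 on the P4 arrays, against 51.5, 50.2 and 61.6 on the oil arrays (0.07 ± 0.11). The brighter of the 2 of Gabra3 had 45.8, 79.9 and 55.9 on the P4 arrays, against 43.3, 50.9 and 67.9 on the oil arrays (0.12 ± 0.19). In all 3 genes the groups overlapped. The remaining 4 probe sets of Gabra2 ran from 6.59 to 31.7 over all arrays.

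Gabbr1 was detected brightly by 1 probe set and less so by another, and they did not give the same difference. With 1455021_at the P4 arrays had 644, 495 and 539, against 796, 587 and 668 on the oil arrays. Means were 559 ± 76.6 after P4 and 683 ± 105 after oil (SD, n = 3 each), a log2 difference of -0.28 ± 0.14, with P4 array 1 above oil array 2. With 1437188_at the P4 arrays had 247, 205 and 214, against 230, 245 and 195 on the oil arrays, a difference of -0.01 ± 0.12. The other 2 probe sets of Gabbr1 were below the limit on every array.

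Abat, whose product removes GABA, was higher on each P4 array than on any oil array with 1433855_at. It had 345, 376 and 340 on the P4 arrays, against 277, 326 and 277 on the oil arrays. The gap between the groups was small, with P4 array 3 at 340 and oil array 2 at 326. The means were 354 ± 19.4 after P4 and 294 ± 28.4 after oil (SD, n = 3 each), a log2 difference of 0.26 ± 0.10. The other Abat probe set, 1422226_at, ran from 47.0 to 62.0, below the limit on every array, and differed by -0.09 ± 0.10.

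**Figure D3:**
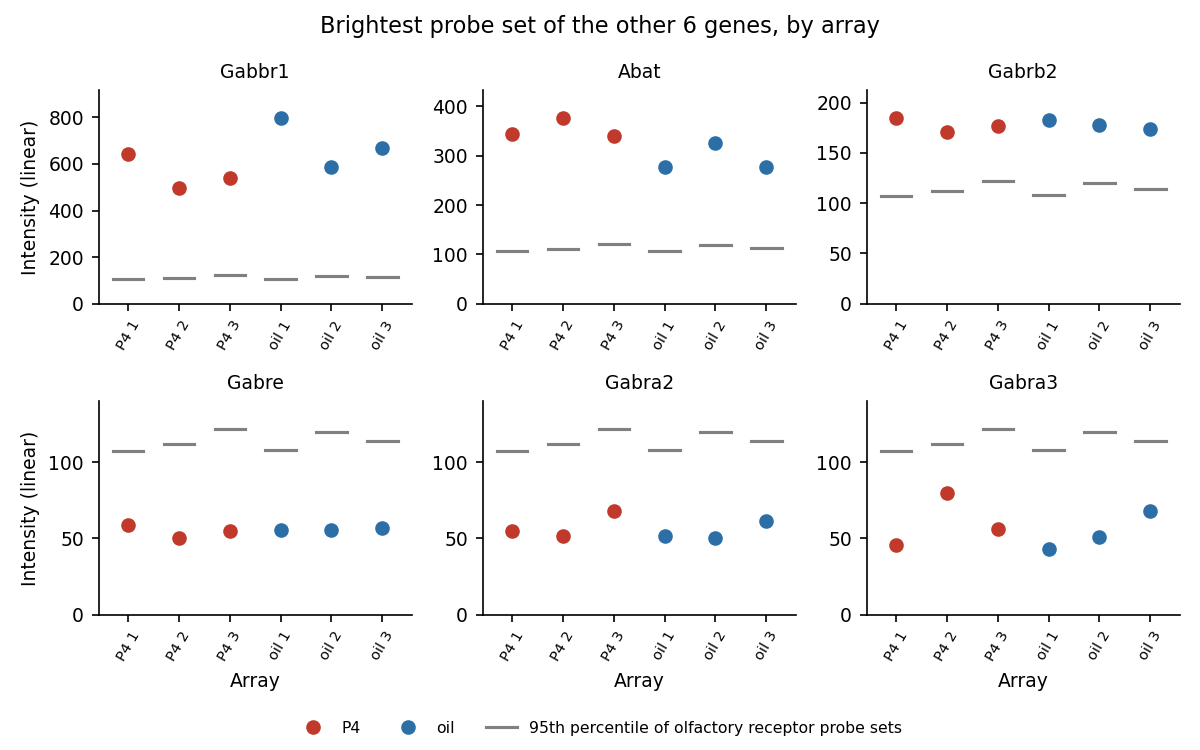
Intensity (linear axis from 0) of the brightest probe set of Gabbr1, Abat, Gabrb2, Gabre, Gabra2 and Gabra3 on the 3 P4 arrays (red) and the 3 oil arrays (blue), with the olfactory receptor limit of each array in grey. Gabbr1, Abat and Gabrb2 lie above the limit on all arrays, and Gabre, Gabra2 and Gabra3 below it.

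The wider GABA pathway was read from 8 lists of 67 further genes, of which 55 were measured. P4 was compared with oil by limma over all genes, with Benjamini-Hochberg adjustment. Of the 55, 3 were higher and 4 lower after P4, 12.7% together, close to the 13.0% of all genes (6.08% higher and 6.94% lower). The median log2 difference of the 55 was 0.00. The counts fell when some single arrays were left out. Higher genes were 0 without oil replicate 1 or oil replicate 2, and 1 without P4 replicate 2. Lower genes were 2 without oil replicate 2. Calls over all genes fell too. In the same order, the higher ones went from 1106 to 558, 485 and 640. The lower ones went from 1262 to 508. With array 2 of each group left out, 0 of the 55 were higher and 0 lower, and of all genes 99 and 72. That alternative was added with the data in view.

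Among 10 other GABA-A subunits, 1 was lower after P4 and 0 higher (0 higher also at an unadjusted limma p under 0.05). It was Gabrb1, which encodes a beta subunit. Its brightest probe set had 147, 126 and 121 on the P4 arrays, against 203, 231 and 180 on the oil arrays. The groups did not overlap, and the log2 difference was -0.58 ± 0.12 (limma adjusted p 0.0167). That probe set was above the olfactory receptor limit on 5 arrays. The other 3 Gabrb1 probe sets had differences of -0.12, -0.02 and -0.04. They were above the limit on 0, 1 and 3 arrays in that order, so their differences bear on background as well. The call was lost with the mean of all 4 probe sets (adjusted p 0.127) and without P4 replicate 2, P4 replicate 3, oil replicate 1 or oil replicate 2 (up to 0.0708). None of the other 9 subunits, among them Gabra4, Gabrd and Gabrr1, was above the olfactory receptor limit on any array.

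Gabrb1 lies in the GABA-A subunit cluster of chromosome 5 with Gabrg1, Gabra2 and Gabra4. The annotated spans of Gabra4 and Gabrb1 overlap. Gabra4 had a mean of 47.4 after P4 and 51.3 after oil and a log2 difference of -0.08 ± 0.12 (limma adjusted p 0.75). Gabre and Gabra3 lie 158 kb apart on chromosome X, and Gabrp and Gabrb2 lie 8.84 Mb apart on chromosome 11. Within 500 kb of Gabrp there are 7 other protein-coding genes, all measured, a window set after the files were in hand and by position alone. Of the 7, Fgf18, a growth factor gene 403 kb away, was lower after P4, with means of 74.4 ± 10.5 after P4 and 202 ± 62.2 after oil (SD, n = 3 each) and a log2 difference of -1.23 ± 0.21 (limma adjusted p 0.00936). That call held without any 1 array (adjusted p up to 0.0421) and was lost without both arrays numbered 2 (0.142). The P4 mean of Fgf18 lay below the olfactory receptor limit of 107 to 122 on the P4 arrays. Its difference is thus one of intensities and not an exact fold of RNA. The nearest neighbours, Ranbp17 at 37.0 kb and the channel-interacting gene Kcnip1 at 50.4 kb, had differences of 0.12 ± 0.13 (adjusted p 0.628) and -0.26 ± 0.11 (0.19).

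Of 3 measured genes beside Gabbr1 in the GABA-B list, 1 was lower after P4 and 0 higher (1 higher at an unadjusted limma p under 0.05). Kctd12b, a relative of the Kctd proteins that bind GABA-B receptors, had 251, 285 and 270 on the P4 arrays, against 359, 438 and 402 on the oil arrays. The groups did not overlap, with a log2 difference of -0.54 ± 0.10 (adjusted p 0.012). The call was lost without oil replicate 2 (0.0578), with the mean of both its probe sets (0.0527), and without both arrays numbered 3 (0.0646) or 2 (0.125).

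Genes that make, break down or carry GABA did not pass the test. Of 5 measured synthesis and breakdown genes other than Abat and of 4 transporters, limma called 0, with 1 lower and 0 higher of the 9 at an unadjusted p under 0.05, Aldh5a1. The GABA-making enzymes Gad1 and Gad2 were below the olfactory receptor limit on every array, with means of 51.4 and 26.5 after P4 against 55.6 and 26.1 after oil. Aldh5a1, which acts after Abat, had means of 343 after P4 and 399 after oil and a log2 difference of -0.21 ± 0.09 (adjusted p 0.181). Aldh5a1, Gad1 and Gad2 fall outside the naming rule and were picked with their values known. Aldh9a1, which can form GABA from a polyamine product, had 1651 after P4 and 1646 after oil (0.00 ± 0.09, adjusted p 0.987). Glul, glutamine synthetase, had 4213 after P4 and 4374 after oil (-0.06 ± 0.07, adjusted p 0.722).

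Of 14 measured genes whose proteins traffic or anchor GABA-A receptors, the largest of the lists, 2 were higher and 1 lower, beside 13.0% of all genes called. Gabarapl1, an autophagy protein that also binds the receptor, was lower, with 1740, 1749 and 1535 on the P4 arrays against 2868, 3087 and 2471 on the oil arrays. Its log2 difference was -0.74 ± 0.10 (adjusted p 0.00411), and its other probe set gave -1.01 ± 0.16. Zdhhc3, an enzyme that attaches palmitate to receptor subunits, was higher, with 591, 559 and 443 on the P4 arrays against 332, 367 and 331 on the oil arrays (0.60 ± 0.12, adjusted p 0.0159). Ubqln1, which binds subunits and ubiquitin chains, was higher by 0.38 ± 0.08 (adjusted p 0.0178).

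The first of these calls held without any 1 array (adjusted p up to 0.0238) and missed the threshold without both arrays numbered 2 (0.0807). Zdhhc3 lost its call without P4 replicate 2, oil replicate 1 or oil replicate 2 (up to 0.0656). Ubqln1 lost its call without oil replicate 1 or 2 (up to 0.0815) and without both arrays numbered 3 (0.0855). It also lost it without probe sets open to cross-hybridisation (0.289), which left a probe set above the olfactory receptor limit on 0 arrays. That loss therefore cannot tell cross-hybridisation from a probe set too dim to measure Ubqln1. A further Ubqln1 probe set, also left out there, was above the limit on 5 arrays and differed by 0.72 ± 0.16. Of the bright genes of the list that were not called, Gabarap, a founding member of the same protein family, had means of 4571 after P4 and 5068 after oil (-0.15 ± 0.08, adjusted p 0.276). Nlgn2, an adhesion protein of inhibitory synapses, had 1145 after P4 and 1348 after oil (-0.24 ± 0.14, adjusted p 0.349).

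The effect of a GABA-A channel on a cell depends on the chloride gradient, which cotransporters set. Of 8 measured cotransporter and kinase genes 1 was higher after P4 and 0 lower by limma (3 higher and 1 lower at an unadjusted p under 0.05). Oxsr1, a kinase that acts on the cotransporters, had 542, 562 and 490 on the P4 arrays, against 386, 385 and 426 on the oil arrays. The difference was 0.40 ± 0.09 (adjusted p 0.0243), and the call was lost without P4 replicate 1 or 2 or oil replicate 1 or 2 (up to 0.102). Slc12a2, which brings chloride in, had 3039 after P4 and 2660 after oil (0.19 ± 0.09, adjusted p 0.244), and the kinase Wnk1 had 3097 after P4 and 3344 after oil (-0.11 ± 0.08, adjusted p 0.426). Of 5 glycine receptor subunits, close relatives of GABA-A subunits, limma called 0, and 0 had an unadjusted p under 0.05.

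Of 6 measured enzymes that act on progesterone or its reduced metabolites, Akr1c14 was lower after P4 and 0 were higher (0 also at an unadjusted limma p under 0.05). Akr1c14 is a 3-alpha-hydroxysteroid dehydrogenase, of the kind that makes GABA-A active steroids. It had 220, 252 and 192 on the P4 arrays, against 437, 381 and 401 on the oil arrays. The groups lay well apart, and the log2 difference was -0.84 ± 0.11 (adjusted p 0.00403). The call held without any 1 array (adjusted p up to 0.0225) and was at 0.0509 without both arrays numbered 2.

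**Figure D4:**
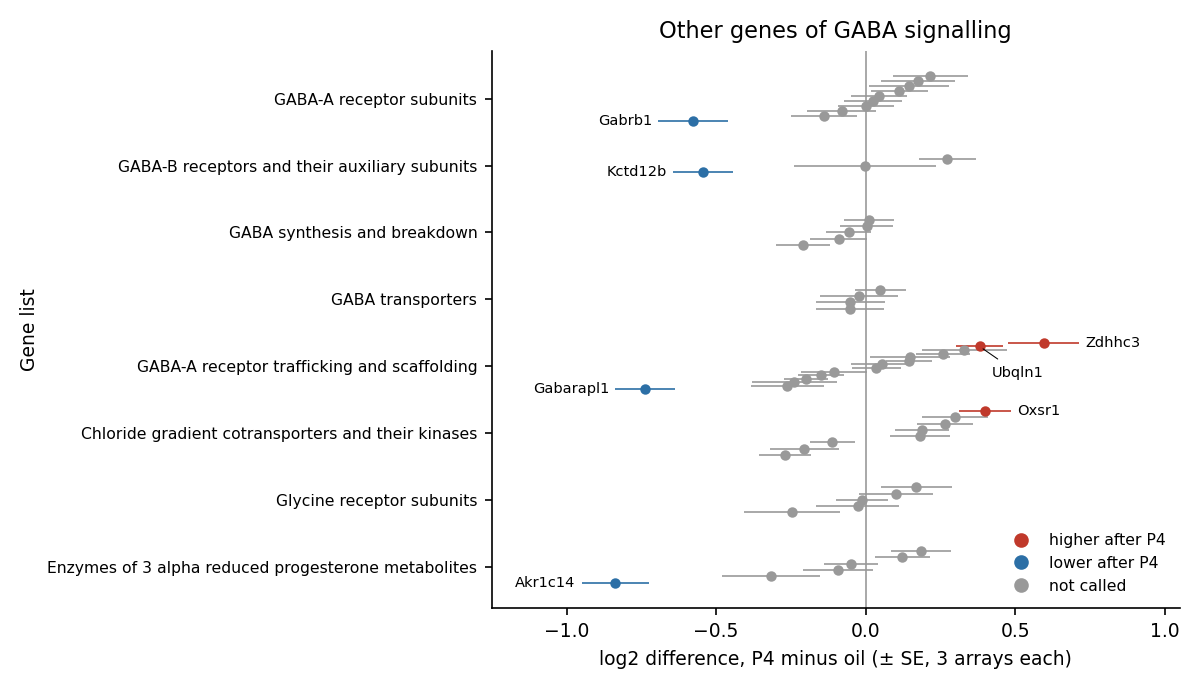
The log2(intensity + 16) difference of P4 minus oil ± SE (3 arrays each) for the 55 measured GABA pathway genes outside the 7, by list; red and blue points passed a limma adjusted p under 0.05 as higher and lower after P4. The 7 named genes passed, and all lie within 1 log2 unit of 0.

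The labelled tissue was checked against markers of its cell types. Smooth muscle, stromal and epithelial markers were bright in both groups: Acta2 had 15852 ± 908 after P4 and 15959 ± 286 after oil, Dcn 13748 ± 1487 after P4 and 15594 ± 1254 after oil, and Krt18 2680 ± 742 after P4 and 4028 ± 184 after oil (SD, n = 3 each). Over all 91 measured markers of 10 lists, limma called 6 higher and 3 lower after P4, 9.89% together, beside 13.0% of all genes. With the replicate number as a block it called 8 and 12, beside 1690 and 2111 of all 18193 genes, and without both arrays numbered 2 it called 1 and 1, beside 99 and 72. The nerve and glia list, where GABA-A subunits are usually studied, had 0 of 12 called by limma (0 at an unadjusted p under 0.05), 2 of the 12 above the olfactory receptor limit on every array, and a sum of 924 to 1079 after P4 and 951 to 1006 after oil.

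Since Gabrp is known as an epithelial gene, the epithelial list was set beside it. Of 17 measured markers 2 were higher and 1 lower after P4, Cldn3, a tight junction protein, at 1.21 ± 0.12 (limma adjusted p 0.00124), Wnt7a at -1.63 ± 0.14 (0.000739) and Ehf, which was picked with its value known. At an unadjusted p under 0.05, 3 were higher and 4 lower. Besides Wnt7a the lower ones were the keratins Krt18 (-0.62 ± 0.19, adjusted p 0.0673) and Krt19 (-0.34 ± 0.10, 0.0721) and the transcription factor Elf3 (-0.65 ± 0.20, 0.078), and in each of these the groups did not overlap. Krt19 and Elf3 were picked with their values known. Of the 17 markers 14 were above the olfactory receptor limit on every array. Prss28 and Spink1, the latter among the 3 higher at the unadjusted p, were above it on none. Krt8 had means of 2901 ± 1086 after P4 and 3556 ± 308 after oil (SD, n = 3 each), a difference of -0.36 ± 0.25 (adjusted p 0.436). Summed intensities of the 16 markers other than Ltf, which also marks granulocytes, were 23050, 16612 and 27811 on the P4 arrays, against 21904, 20428 and 24412 on the oil arrays. Without Cldn3 as well, a sum added with the data in view because Cldn3 was called higher, the 15 markers summed to 17962, 12783 and 23599 on the P4 arrays, against 19933, 18446 and 22755 on the oil arrays. The groups overlapped in both sums; in the second, P4 arrays 1 and 2 were below every oil array and P4 array 3 above them.

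The spread of Gabrp within the groups was set beside that of each marker. The correlation of Gabrp with each gene's deviations from its group means over the 6 arrays was above 0.5 for 13 of 17 epithelial markers (median 0.81). It was above 0.5 for 0 of 8 smooth muscle markers (median -0.52) and for 32.7% of all genes (median 0.16). It was above 0.5 for 4 of 7 squamous (median 0.86), 6 of 10 ciliated (median 0.64), 7 of 12 nerve and glia (median 0.55) and 4 of 8 granulocyte markers (median 0.07). The lists were not tested against each other. Most markers of the squamous, ciliated and nerve lists were dim, with 1 squamous, 1 ciliated and 2 nerve and glia markers above the olfactory receptor limit on every array. Epcam, a surface protein of epithelia, had 1619, 1148 and 2697 on the P4 arrays, against 2000, 1951 and 2981 on the oil arrays. Muc1, a surface mucin, had 153, 154 and 763 on the P4 arrays, against 301, 328 and 1104 on the oil arrays. In both, array 3 was the highest of each group, as for Gabrp. Epcam and Muc1 were picked with their values known and are among the markers closest to Gabrp (r 0.97 and 0.96). An r this high was not particular to epithelial markers: Gabra2, above the olfactory receptor limit on no array, had 0.96. Other epithelial markers ran otherwise: Krt19 (r -0.39) had 1684, 1368 and 1418 on the P4 arrays, against 2042, 1860 and 1738 on the oil arrays, and was highest on array 1 in both groups. Other cell types also differed between arrays: S100a8, a granulocyte gene, had 67.6, 3408 and 4860 on the P4 arrays, against 70.3, 64.3 and 2950 on the oil arrays, and the fat gene Adipoq had 92.0, 200 and 52.1 on the P4 arrays, against 363, 349 and 187 on the oil arrays. The part of any of these in the Gabrp values was not tested. With array 3 of each group left out, also added with the data in view, the Gabrp difference was -3.02.

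**Figure D5:**
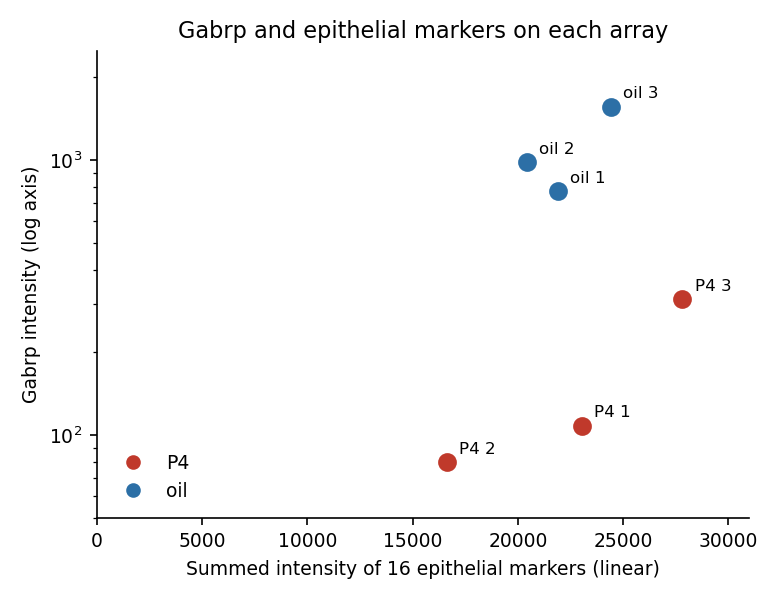
Gabrp intensity (log axis) against the summed intensity of 16 epithelial markers (linear axis from 0) on each of the 3 P4 arrays (red) and 3 oil arrays (blue). The sums of the groups overlap, from 16612 to 27811 after P4 and from 20428 to 24412 after oil, and Gabrp is lower on every P4 array than on any oil array. The 16 markers include Cldn3, which was called higher after P4. Without Cldn3 the sums of P4 arrays 1 and 2 are below every oil array and that of P4 array 3 above them.

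Other genes shared the pattern of Gabrp closely. Of 9095 other genes brighter than the median gene, 446 had a Pearson correlation with Gabrp above 0.9 over the 6 arrays, which mixes the P4 difference with the spread within groups. The 6 highest were Met, Myh14, Pcbp2, Gbp7, Trim25 and Pim1, with r from 0.998 to 0.992. Met, the receptor of hepatocyte growth factor, had 345, 318 and 518 on the P4 arrays, against 707, 838 and 946 on the oil arrays. These 6 genes were chosen for their likeness to Gabrp on the same arrays, which largely fixes the order of their arrays and a lower level after P4, so their P4 differences are given with no test. They were -1.07 ± 0.19 for Met, or -0.59 with the mean of its probe sets. Myh14, a non-muscle myosin, had 157, 156 and 217 on the P4 arrays, against 287, 284 and 343 on the oil arrays (-0.75 ± 0.14). Pim1, Gbp7 and Trim25 differed by -0.64, -0.51 and -0.49, and Pcbp2 by -0.19 ± 0.06. With deviations from the group means, 340 genes were above 0.9, and the 6 highest were Mtx2, Vdac1, Cmbl, Ormdl1, 1700037H04Rik and Zfp113, with r from 0.998 to 0.993. For these 6 genes the P4 difference was not called, for example 0.10 ± 0.12 for the mitochondrial gene Mtx2 (adjusted p 0.718). With so few arrays, high values occur for many genes, and each r is a description.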

How the data were processed

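The authors deposited an intensity on a linear scale for every probe set of an array. Per the labels, biotin-labelled cRNA was made from 5 ug total RNA. Their summarising and scaling methods are not given in the sources used here. Intensities were turned into log2(intensity + 16) without further normalization. Names came from the platform annotation, where 34945 probe sets had 1 gene symbol, 932 several and 9160 none here. Each gene was represented by its probe set of highest mean. The fit of P4 minus oil used the 6 arrays and no covariate, with limma 3.58.1 (R 4.3.3), moderated with an intensity trend. Benjamini-Hochberg adjusted p-values cover 18193 genes, at a threshold of 0.05. The test was checked on simulated data, in which the spread was drawn independently for each gene and array. Variation that genes or arrays share was therefore not part of that check. Tables were made with pandas 2.3.3 and figures with matplotlib 3.10.9.

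The genes and lists were chosen with earlier results of these data known; 12 of the 67 pathway genes and 5 of the 96 markers are not analysed here. The rule named all 7 genes, called pathway genes, the 6 brightest uncalled ones, up to 2 called and the 2 brightest markers of a list, and 6 genes by each likeness measure; of the marker lists only those set beside a result are given by name. Of the other lists, limma called 0 of 10 ciliated epithelium and oviduct markers (0 at an unadjusted p under 0.05). It called 1 of 7 squamous epithelium markers, Trp63, higher (1 unadjusted). In stroma 3 were higher and 1 lower of 11 (4 and 2 unadjusted), with Hoxa11 at 0.89 ± 0.08 and Lum at -0.90 ± 0.18. In endothelium 1 of 7, Tek, was lower (3 lower unadjusted), and the differences ran from -0.38 to -0.04 (median -0.29). The endothelial sum was 4863, 4813 and 4906 on the P4 arrays, against 5088, 5823 and 5929 on the oil arrays. The squamous sum was higher after P4, at 747 to 759 against 600 to 675 after oil. It includes Trp63, with means of 178 after P4 and 58.1 after oil, above the olfactory receptor limit on 2 arrays. Trp63 was the 1 of the 7 squamous markers in which the groups did not overlap. Smooth muscle, leukocytes and granulocytes each had 0 of 8 called and 0 unadjusted. Fat cells had 0 of 4 called and 2 lower unadjusted.

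Titles number the arrays 1 to 3 in each group. After subtracting group means, same-numbered arrays had correlations of 0.53, 0.13 and 0.64, which by the data, not the labels, met the rule for pairs (each over 0.1), although P4 array 1 and oil array 2 correlated at 0.29, above the 0.13 of number 2. The calls come from the fit without the block. The replicate block is given where it moves a count by over 1.5 times. Precision is limited by having 3 arrays a group. Alternatives changed normalization, pseudocount, probe set choice, the filter on dim genes, moderation and blocking, and left out arrays.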

Additional observations from a re-analysis of the deposited data

How the results depend on the processing

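The Gabrp difference of -2.77 kept its sign under all 19 alternatives, from -3.30 without P4 replicate 3 to -2.24 with the mean of its probe sets, and within -3.30 to -2.41 with any 1 array left out. Over the 7 genes, 123 of 129 values moved by less than the spread between arrays. The other 6 were Gabre (0.10), Gabrb2 (0.12) and Abat (0.38) with scaling to the hybridisation controls, which raised the median of all genes by 0.13 and turned the sign of Gabre and Gabrb2, and Gabrb2 (0.05), Gabbr1 (-0.05) and Abat (0.09) with the mean of all probe sets. The signs of Gabra2, Gabra3, Gabrb2 and Gabre also changed when single arrays were left out (-0.02 to 0.14, -0.06 to 0.26, -0.03 to 0.02 and -0.07 to 0.02).

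The 1106 higher and 1262 lower genes became 1690 and 2111 with the replicate block, 1927 and 624 when arrays were scaled to hybridisation controls, 485 to 1075 and 508 to 1227 with 1 array left out, and 99 and 72 without both arrays numbered 2; 683 were lower without both numbered 3. Of the pathway genes, 3 higher and 4 lower, 6 were higher with scaling to the controls, 2 lower with the mean of all probe sets, 0 to 3 higher and 2 to 5 lower with 1 array left out, and 0 and 0 without both numbered 2. Of the markers, 6 higher and 3 lower, 12 were lower with the replicate block, 3 to 7 higher and 1 to 4 lower with 1 array left out, and 1 and 1 without both numbered 2. The block gave 4 higher and 5 lower pathway genes. Fewer arrays were used where arrays were left out; otherwise the cause was not tested. With log2(intensity + 16), differences of dim genes are understated.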
